A study of Mus musculus with 38 samples.

Results

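Gbp1, Gbp2, Gbp3, Irf1, Ifitm1, Ifitm2, Ifitm3, B2m and Bst2 were followed across 14 RNA libraries of mouse embryonic stem cells. They are 9 of the 25965 rows of the deposited expression table, taken by symbol, and were chosen by earlier results on the RPM values of this same table, their low levels away from serum included. Levels and differences against serum are therefore given as a description, without a test. Poly(A) RNA came from E14 cells, an XY line of 129/Ola origin grown without feeders on gelatin. Every culture was first plated in serum medium and changed to its own medium on the following day. All media contained leukaemia inhibitory factor (LIF). 2i/L for 8 days held 1 µM of the MEK inhibitor PD03259010 (spelled as in the labels) and 3 µM of the GSK3 inhibitor CHIR99021 in serum-free N2B27. MEKi/L for 8 days held 1 µM PD03259010 in N2B27. GSK3i/L held 3 µM CHIR99021 in N2B27 and was sampled at 24 days and at 8 days. S/L for 8 days was DMEM with fetal bovine serum and LIF, and no inhibitor. S/L thus differs from each other medium in basal medium and serum as well as in inhibitors, and these cannot be told apart. There were 3 libraries per medium at 8 days and 2 at 24 days (numbered 2 and 3). The labels call them biological replicates of 1 cell line without naming separate cultures. Their p-values then reflect the spread among the libraries at hand, which may be technical.

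Interferons signal through paired receptors and JAK kinases to STAT proteins and interferon regulatory factors (IRFs). GAS and ISRE elements are the short sequences in front of target genes that mediate this response, and IRF1 itself binds elements of the ISRE type. The targets include guanylate-binding proteins (GBPs), which are GTPases that coat intracellular pathogens and their vacuoles, the membrane proteins of the IFITM family, which hinder viral fusion, tetherin (Bst2), which holds budding virions at the cell surface, and components of MHC class I such as B2m. Embryonic stem cells respond weakly to interferon and keep some of these antiviral genes, Ifitm genes among them, at a level of their own. Ifitm1 and Ifitm3 are also known as markers of early germ cells.

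Values are reads per 1000000 reads (RPM), linear, and are not divided by transcript length, so levels are compared within a gene. In 8 libraries (2i/L, MEKi/L and GSK3i/L at 24 days) the deposited log2 values turned back into whole reads, with totals of 10550000 to 15760000 reads. The values of the other 6 (GSK3i/L at 8 days and S/L) followed 1 shared distribution, as if matched to it, which is read from the values alone. Their read numbers, marked "about", are approximations, with totals near 8100000 to 17840000. The 8 embryonic stem cell markers summed to 5050 to 7377 RPM in every library. Of 11 immune cell markers in the table, Ptprc, Lyz2 and Tyrobp were at 0 in all 5 groups, while their sum, which includes genes that stem cells express, was 238 to 246 RPM in 2i/L, 154 to 207 in MEKi/L, 69.2 to 115 in GSK3i/L at 24 days, 100 to 182 in GSK3i/L at 8 days and 37.9 to 64.0 in S/L. Fibroblast markers summed to 106 to 249 RPM in GSK3i/L at 8 days, against 6.07 to 16.0 RPM in the other 4 groups. The part of these cells in the levels below was not tested. In bulk RNA, fewer cells that express a gene and less RNA per cell cannot be told apart. A length score, 27 long minus 30 short transcripts (mean log2 RPM), set replicate 1 apart within MEKi/L (0.44, against -2.17 and -1.77) and within GSK3i/L at 8 days (0.13, against -1.92 and -3.03). Scores were 0.18 to 0.31 in the 2i/L libraries, -3.91 and -3.31 in GSK3i/L at 24 days and -3.15 to -2.71 in S/L.

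Gbp1, Gbp2 and Gbp3 lie side by side on the plus strand of chromosome 3, and all were near 0 in every library without serum. Gbp3 (ENSMUSG00000028268) spans chr3:142560052-142573209 in GRCm38, Gbp1 (ENSMUSG00000028269, named Gbp2b by RefSeq with Gbp1 as a synonym) spans chr3:142594847-142619179, and Gbp2 (ENSMUSG00000028270) spans chr3:142620602-142638008. The bases in front of their start sites are shown because these genes shared 1 pattern of levels. Each line below gives 250 bases up to the RefSeq start site, plus strand of GRCm38.p6, and capitals mark an ISRE core, GAAA and GAAA with any 2 bases between them, read on either strand. For Gbp3 the first of 2 RefSeq start sites is given.
Gbp1, chr3:142594597-142594846: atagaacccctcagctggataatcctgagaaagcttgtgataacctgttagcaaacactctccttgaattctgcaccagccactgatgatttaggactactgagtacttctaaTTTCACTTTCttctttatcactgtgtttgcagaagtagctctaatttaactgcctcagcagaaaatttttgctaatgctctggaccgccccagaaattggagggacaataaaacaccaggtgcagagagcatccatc
Gbp2, chr3:142620413-142620662: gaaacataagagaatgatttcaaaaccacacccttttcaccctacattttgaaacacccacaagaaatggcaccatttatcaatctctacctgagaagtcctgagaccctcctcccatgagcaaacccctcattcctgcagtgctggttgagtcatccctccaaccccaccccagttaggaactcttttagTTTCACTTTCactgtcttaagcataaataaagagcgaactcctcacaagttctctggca
Gbp3, chr3:142559794-142560043: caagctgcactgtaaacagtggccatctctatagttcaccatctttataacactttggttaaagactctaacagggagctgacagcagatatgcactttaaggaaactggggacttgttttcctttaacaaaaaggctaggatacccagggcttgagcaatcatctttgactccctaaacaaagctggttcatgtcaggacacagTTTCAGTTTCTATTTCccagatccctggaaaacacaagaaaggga
Gbp1 and Gbp2 carried the same 10 letters, TTTCACTTTC, with their first base 137 and 59 bases before the start site. Gbp3 carried 2 overlapping matches to the core, TTTCAGTTTC and TTTCTATTTC, at 45 and 39 bases, and the window of its second start site held none.

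Gbp1 was read in serum and close to nowhere else. Its reads numbered 2, 0 and 0 in the 2i/L libraries, 4, 1 and 2 in MEKi/L, 0 and 0 in GSK3i/L at 24 days, about 3, 1 and 2 in GSK3i/L at 8 days, and about 117, 55 and 101 in S/L. Every S/L library stood above every other library. The level was 0.0508 ± 0.0880 RPM in 2i/L, 0.172 ± 0.0922 RPM in MEKi/L and 0.217 ± 0.0988 RPM in GSK3i/L at 8 days, against 10.1 ± 4.58 RPM in S/L (SD, n = 3 each). Summed over libraries, 2i/L held 0.492% of the approximate S/L level (exact 95% interval 0.0593 to 1.79%), MEKi/L 1.75% (0.697 to 3.66%) and GSK3i/L at 8 days 1.55% (0.562 to 3.41%). With 0 reads, GSK3i/L at 24 days was at least 41-fold lower than S/L, taking 3 reads per library as the floor. The order of the 4 low groups rests on 0 to 4 reads per library and was not detectable at this depth. These intervals and the floor cover counting error only.

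Gbp2 repeated the pattern at a somewhat wider spread. Its reads numbered 3, 0 and 0 in 2i/L, 11, 0 and 0 in MEKi/L, 0 and 0 in GSK3i/L at 24 days, about 7, 1 and 2 in GSK3i/L at 8 days, and about 166, 66 and 120 in S/L. The 11 reads of MEKi/L all came from replicate 1, and replicate 1 also held most of the reads at 8 days in 2i/L and GSK3i/L. The level was 0.0762 ± 0.132 RPM in 2i/L, 0.233 ± 0.403 RPM in MEKi/L and 0.307 ± 0.171 RPM in GSK3i/L at 8 days, against 13.3 ± 7.04 RPM in S/L (SD, n = 3 each). The summed share of the S/L level was 0.572% in 2i/L (exact interval 0.117 to 1.69%), 2.13% in MEKi/L (1.06 to 3.87%) and 2.00% in GSK3i/L at 8 days (0.95 to 3.72%). GSK3i/L at 24 days was at least 54-fold lower than S/L.

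Gbp3 was rarer and did not reach the 0.5 RPM in 3 libraries that a gene needed to be tested. It had 0 reads in 2i/L, in GSK3i/L at 24 days and in GSK3i/L at 8 days, and 1, 0 and 0 reads in MEKi/L, against about 22, 4 and 4 reads in S/L. Its S/L level of 0.998 ± 1.18 RPM (SD, n = 3) rested on replicate 1 (2.36 RPM, against 0.306 and 0.331 RPM). At the floor of 3 reads per library it was at least 4-fold lower in 2i/L and GSK3i/L at 24 days and at least 3-fold lower in GSK3i/L at 8 days than in S/L. MEKi/L held 2.28% of the S/L level, with an exact interval of 0.0558 to 13.7%.

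Within serum the 3 libraries ranked alike for these genes. Gbp1 was at 14.5, 5.41 and 10.4 RPM and Gbp2 at 20.7, 6.64 and 12.6 RPM in S/L replicates 1, 2 and 3. Replicate 1 was highest for Gbp1, Gbp2 and Gbp3, and Irf1 followed the same order as Gbp1 and Gbp2 (48.0, 31.2 and 41.8 RPM). Ifitm1, Ifitm2, Ifitm3, B2m and Bst2 did not, and were highest in replicate 3. Over the 14 libraries the log2 levels correlated at r = 0.979 between Gbp1 and Gbp2, 0.902 between Gbp1 and Gbp3 and 0.867 between Gbp2 and Gbp3, a description that rests on the gap between 3 serum libraries and 11 at or near 0 reads. As Gbp1 and Gbp2 are close paralogs, how the authors' counting shared reads between them is not known from the sources used here.

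**Figure D1:**
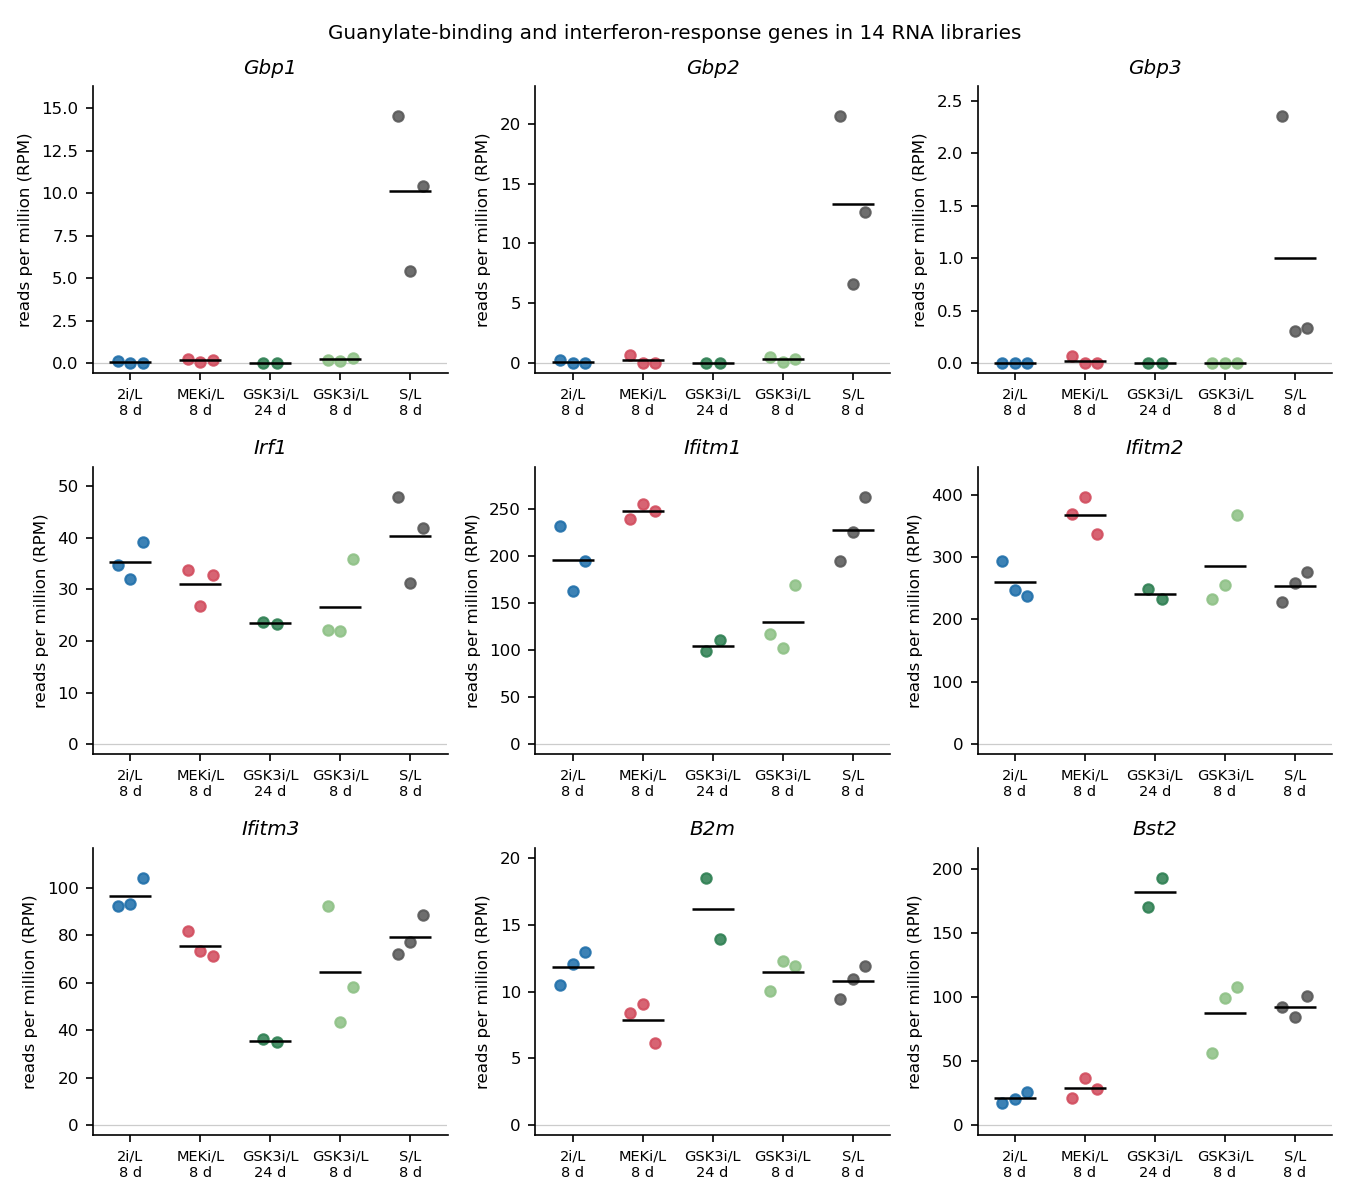
Level of each of the 9 genes in every library, in RPM on a linear axis of its own per panel, with 1 point per library and a line at the group mean; groups run from 2i/L through MEKi/L, GSK3i/L at 24 days and GSK3i/L at 8 days to S/L. Gbp1 and Gbp2 stand at 5.41 to 20.7 RPM in S/L and near 0 elsewhere, while Bst2 is lowest in 2i/L and MEKi/L and highest in GSK3i/L at 24 days.

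On the log2 scale of the fit, where 0 reads stand at the value of 0.9 read, Gbp1 differed from S/L by -6.76 ± 0.61 in 2i/L, -5.95 ± 0.61 in MEKi/L and -5.53 ± 0.61 in GSK3i/L at 8 days (SE). Gbp2 differed by -6.92 ± 0.85 in 2i/L, -6.26 ± 0.85 in MEKi/L and -5.48 ± 0.85 in GSK3i/L at 8 days. Their size depends on the value given to 0 reads: with 1 RPM added before the log, Gbp1 came to -3.26 (2i/L), -3.16 (MEKi/L) and -3.10 (GSK3i/L), and Gbp2 to -3.55, -3.39 and -3.34 in these media. The sign was the same in each of the 23 alternatives, but the genes were chosen with this gap known, so that adds no support. Gbp1 reached the 0.5 RPM of the filter in 3 libraries, all S/L, and Gbp2 in these and 1 MEKi/L library. At 0 to 11 reads per library without serum, they are given no test between serum-free media.

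Around the cluster, the high level in S/L was not shared by every gene. Gbp5 and Gbp7, within 100 kb of the trio, were at or near 0 in all 5 groups, S/L included (Gbp7 at 0.198 RPM in GSK3i/L at 8 days and 0.191 RPM in S/L). Ccbl2, the 1 tested neighbour and an enzyme of amino acid metabolism, averaged 27.6 RPM in 2i/L, 25.8 for MEKi/L, 20.8 for GSK3i/L at 24 days, 25.1 for GSK3i/L at 8 days and 22.8 in S/L, and was called in 0 of the 7 comparisons.

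**Figure D2:**
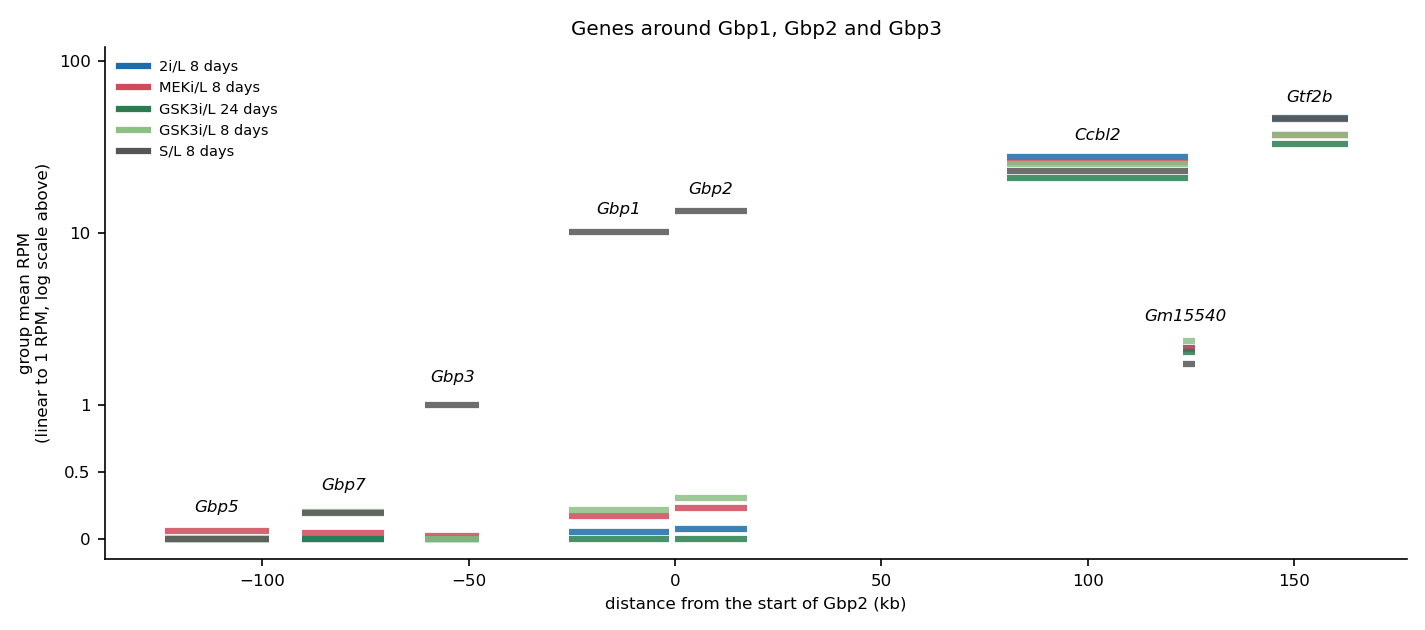
Mean level (RPM) of each gene around the Gbp cluster in the 5 groups, as a line over its span in kb from the start of Gbp2, on an axis that is linear up to 1 RPM and logarithmic above. Gbp1, Gbp2 and Gbp3 stand out from 0 in S/L, Gbp5 and Gbp7 stay near 0 in every group, and Ccbl2 lies between 20.8 and 27.6 RPM throughout.

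Irf1 (ENSMUSG00000018899, chr11:53770014-53778374, plus strand), the transcription factor that drives many of these genes, was present in every medium. Its first RefSeq start site is preceded by the letters TTCNNNGAA (a GAS core, in capitals), first base 90 before the start, shown because it was the only core of either kind found in that window.
Irf1, chr11:53769764-53770013: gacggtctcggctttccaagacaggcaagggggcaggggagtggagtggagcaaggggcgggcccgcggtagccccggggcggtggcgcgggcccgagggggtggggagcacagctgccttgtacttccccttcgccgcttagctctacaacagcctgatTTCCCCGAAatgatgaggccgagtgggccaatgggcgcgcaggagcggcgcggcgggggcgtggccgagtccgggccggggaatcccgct
Irf1 was at 34.8, 31.9 and 39.2 RPM in 2i/L, 33.8, 26.8 and 32.7 RPM in MEKi/L, 23.7 and 23.3 RPM in GSK3i/L at 24 days, 22.2, 21.9 and 35.9 RPM in GSK3i/L at 8 days and 48.0, 31.2 and 41.8 RPM in S/L. The means were 35.3 ± 3.67 RPM for 2i/L, 31.1 ± 3.77 for MEKi/L, 23.5 ± 0.256 for GSK3i/L at 24 days, 26.7 ± 7.98 for GSK3i/L at 8 days and 40.3 ± 8.49 for S/L (SD, n = 3, and n = 2 at 24 days, here and below). From high to low the order was S/L, 2i/L, MEKi/L, GSK3i/L at 8 days and GSK3i/L at 24 days, and each group overlapped the next. Against S/L the log2 differences were -0.18 ± 0.21 in 2i/L, -0.36 ± 0.21 in MEKi/L and -0.61 ± 0.21 in GSK3i/L. Of these, the sign in 2i/L turned in some alternatives and the other 2 kept theirs. Irf1 passed in 0 of the 4 comparisons between serum-free media (limma adjusted p of 0.13 to 0.69). The gene Gm17334 overlaps Irf1 on the other strand at 0.68 to 1.29 RPM (group means), and whether reads were counted by strand is not given in the sources used here.

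Between serum-free media, a call means a limma adjusted p under 0.05 over all 14980 genes tested, with no minimum fold. The 6 genes that reached the filter in all 14 libraries (Irf1, Ifitm1, Ifitm2, Ifitm3, B2m and Bst2) are followed here. For 2i/L against MEKi/L, 0 of the 6 were called, beside 6.81% of all genes called higher and 6.11% lower. For 2i/L against GSK3i/L, Ifitm1 and Ifitm3 rose and Bst2 fell, beside 19.8% of all genes higher and 8.02% lower. For MEKi/L against GSK3i/L, Ifitm1 rose and Bst2 fell, beside 12.2% and 5.65%. For GSK3i/L at 24 against 8 days, Bst2 rose and Ifitm3 fell, beside 4.3% and 13.2%. With 6 genes, these counts are too small to stand apart from the background. The last 3 comparisons share the GSK3i/L libraries at 8 days, so their calls are not independent. The genes were also chosen with values of these same libraries known. Their adjusted p-values, here and below, therefore describe the fit and are no independent test.

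The 3 Ifitm genes sit close together on chromosome 7: Ifitm2 (ENSMUSG00000060591, chr7:140954839-140955961, minus strand), Ifitm1 (ENSMUSG00000025491, chr7:140967221-140969825, plus strand) and Ifitm3 (ENSMUSG00000025492, chr7:141009586-141010770, minus strand). They did not share 1 order of media. Ifitm1 was at 231, 162 and 195 RPM in 2i/L, 239, 255 and 248 RPM in MEKi/L, 98.4 and 110 RPM in GSK3i/L at 24 days, 117, 102 and 170 RPM in GSK3i/L at 8 days and 195, 225 and 263 RPM in S/L. Its GSK3i/L libraries were the low ones: 4 of the 5 lay below every library of the other media, and 1 at 8 days (170 RPM) overlapped 2i/L. The means were 196 ± 34.5 RPM for 2i/L, 247 ± 8.02 for MEKi/L, 104 ± 8.29 for GSK3i/L at 24 days, 130 ± 35.2 for GSK3i/L at 8 days and 228 ± 34.1 for S/L. The order from high to low was MEKi/L, S/L, 2i/L, GSK3i/L at 8 days and GSK3i/L at 24 days, with overlap between each group and the next. MEKi/L against GSK3i/L gave a log2 difference of 0.96 ± 0.20 (SE, limma adjusted p = 0.0038), called in all 24 alternatives with differences of 0.79 to 1.17. 2i/L against GSK3i/L gave 0.61 ± 0.20 (limma adjusted p = 0.036), called in 16 of 23 alternatives and lost, for example, with each library centred on its median (0.31, adjusted p = 0.288). Against S/L the log2 difference was -0.83 ± 0.20 in GSK3i/L, 0.13 ± 0.20 in MEKi/L and -0.22 ± 0.20 in 2i/L, with a sign that held in every alternative for GSK3i/L only.

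Ifitm2 was highest in MEKi/L, at 369, 397 and 337 RPM, against 294, 247 and 238 RPM in 2i/L, 248 and 232 RPM in GSK3i/L at 24 days, 233, 256 and 368 RPM in GSK3i/L at 8 days and 227, 258 and 276 RPM in S/L. The MEKi/L libraries lay above every library of the other groups except replicate 3 of GSK3i/L at 8 days. Means were 260 ± 29.8 RPM for 2i/L, 368 ± 30.0 for MEKi/L, 240 ± 11.4 for GSK3i/L at 24 days, 286 ± 72.1 for GSK3i/L at 8 days and 254 ± 24.5 for S/L. From high to low this gives MEKi/L, GSK3i/L at 8 days, 2i/L, S/L and GSK3i/L at 24 days, each overlapping the next. The log2 difference of MEKi/L from S/L was 0.54 ± 0.19, and that of 2i/L from MEKi/L was -0.50 ± 0.19 (limma adjusted p = 0.089, not called).

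Ifitm3 was lowest after 24 days in GSK3i/L. It was at 92.2, 93.0 and 104 RPM in 2i/L, 81.7, 73.2 and 71.4 RPM in MEKi/L, 36.2 and 35.0 RPM in GSK3i/L at 24 days, 92.4, 43.4 and 58.0 RPM in GSK3i/L at 8 days and 71.9, 77.0 and 88.7 RPM in S/L. Both 24-day libraries lay below all 12 others, and replicate 1 of GSK3i/L at 8 days stood with 2i/L, apart from its own group. Means were 96.5 ± 6.70 RPM for 2i/L, 75.4 ± 5.54 for MEKi/L, 35.6 ± 0.844 for GSK3i/L at 24 days, 64.6 ± 25.2 for GSK3i/L at 8 days and 79.2 ± 8.60 for S/L. The order from high to low was 2i/L, S/L, MEKi/L, GSK3i/L at 8 days and GSK3i/L at 24 days. S/L and MEKi/L overlapped, as did MEKi/L and GSK3i/L at 8 days, while 2i/L did not overlap S/L. Against GSK3i/L at 8 days the log2 difference was 0.65 ± 0.22 in 2i/L (limma adjusted p = 0.038) and -0.79 ± 0.24 in GSK3i/L at 24 days (limma adjusted p = 0.040). These calls were kept in 13 and in 7 of 23 alternatives. With the length score as a covariate the differences came to 0.32 (adjusted p = 0.262) and -0.44 (adjusted p = 0.247), and without replicate 1 of GSK3i/L at 8 days the 24-day difference came to -0.50 (adjusted p = 0.132).

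B2m (ENSMUSG00000060802, chr2:122147686-122153083, plus strand), is the light chain of MHC class I molecules. It was at 10.5, 12.1 and 13.0 RPM in 2i/L, 8.38, 9.07 and 6.16 RPM in MEKi/L, 18.5 and 13.9 RPM in GSK3i/L at 24 days, 10.1, 12.3 and 11.9 RPM in GSK3i/L at 8 days and 9.48, 11 and 11.9 RPM in S/L. The 3 MEKi/L libraries lay below all 11 others and the 2 libraries at 24 days above all 12 others, and the other 3 groups overlapped. Means were 11.9 ± 1.24 RPM for 2i/L, 7.87 ± 1.52 for MEKi/L, 16.2 ± 3.27 for GSK3i/L at 24 days, 11.4 ± 1.19 for GSK3i/L at 8 days and 10.8 ± 1.23 for S/L. Against S/L the log2 difference was 0.14 ± 0.20 in 2i/L, -0.47 ± 0.20 in MEKi/L and 0.09 ± 0.20 in GSK3i/L at 8 days, and its sign held in every alternative for MEKi/L only. The log2 difference was 0.61 ± 0.20 for 2i/L against MEKi/L (limma adjusted p = 0.061) and -0.55 ± 0.20 for MEKi/L against GSK3i/L (limma adjusted p = 0.073), neither of them called. With the replicate number as a block within MEKi/L and GSK3i/L at 8 days, a pairing assumed after seeing the data, the second was called (limma adjusted p = 0.0439). B2m lies within the span of Patl2, on the other strand, which was at 25.0 RPM in 2i/L and 11.7 RPM in S/L, so its reads are uncertain if strand was not used in counting.

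Bst2 (ENSMUSG00000046718, chr8:71534264-71537437, minus strand), which tethers virions, was called in 3 of the 4 serum-free comparisons. In front of its start site 2 overlapping ISRE cores (first bases 130 and 124 before the start) and a GAS core (136 before) run into each other, shown here in capitals on the minus strand.
Bst2, chr8:71537473-71537722: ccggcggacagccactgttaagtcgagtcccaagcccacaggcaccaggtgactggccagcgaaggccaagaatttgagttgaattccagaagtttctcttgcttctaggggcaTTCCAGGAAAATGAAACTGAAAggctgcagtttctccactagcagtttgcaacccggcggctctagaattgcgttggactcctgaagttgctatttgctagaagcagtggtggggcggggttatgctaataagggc
Bst2 was at 17.6, 20.1 and 25.9 RPM in 2i/L, 21.6, 36.8 and 28.5 RPM in MEKi/L, 170 and 193 RPM in GSK3i/L at 24 days, 56.2, 99.5 and 108 RPM in GSK3i/L at 8 days and 92.0, 84.9 and 101 RPM in S/L. Every library with the MEK inhibitor lay below every library without it. Means were 21.2 ± 4.23 RPM for 2i/L, 29.0 ± 7.64 for MEKi/L, 182 ± 16.3 for GSK3i/L at 24 days, 87.8 ± 27.7 for GSK3i/L at 8 days and 92.7 ± 8.20 for S/L. The order from high to low was GSK3i/L at 24 days, S/L, GSK3i/L at 8 days, MEKi/L and 2i/L. S/L overlapped GSK3i/L at 8 days and 2i/L overlapped MEKi/L, and the other neighbours in this order did not overlap.

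Bst2 fell in 2i/L against GSK3i/L by 2.01 ± 0.25 on the log2 scale (SE, limma adjusted p = 6.5e-05) and in MEKi/L against GSK3i/L by 1.58 ± 0.25 (limma adjusted p = 0.00047). Both calls were kept in every alternative run, with differences of -2.32 to -1.51 and -1.87 to -1.38. 2i/L and MEKi/L differed by -0.44 ± 0.25 (limma adjusted p = 0.24), which was not called. Against S/L the differences were -2.15 ± 0.25 in 2i/L, -1.71 ± 0.25 in MEKi/L and -0.13 ± 0.25 in GSK3i/L at 8 days. With the length score as a covariate the first 2 came to -1.30 and -1.25. Bst2 rose in GSK3i/L at 24 against 8 days by 1.10 ± 0.28 (limma adjusted p = 0.023). That call was lost without either library at 24 days (adjusted p = 0.0998 and 0.111), without replicate 1 of GSK3i/L at 8 days (0.81, adjusted p = 0.0734) and with the score as a covariate (0.57, adjusted p = 0.126). Within GSK3i/L at 8 days the lowest Bst2 level was that of replicate 1, the library whose score stood apart. The part of the score in the Bst2 levels was not tested beyond that covariate.

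Of the 14 tested genes within 100 kb of Bst2, 2 rose and 0 fell in 2i/L against GSK3i/L (19.8% and 8.02% of all genes), in MEKi/L against GSK3i/L (12.2% and 5.65%) and at 24 against 8 days in GSK3i/L (4.3% and 13.2%). Against S/L, 3 rose and 5 fell in 2i/L (39.1% and 24.4% of all genes), 3 and 2 in MEKi/L (26.1% and 14.7%) and 3 and 4 in GSK3i/L (16.8% and 14.4%).

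**Figure D3:**
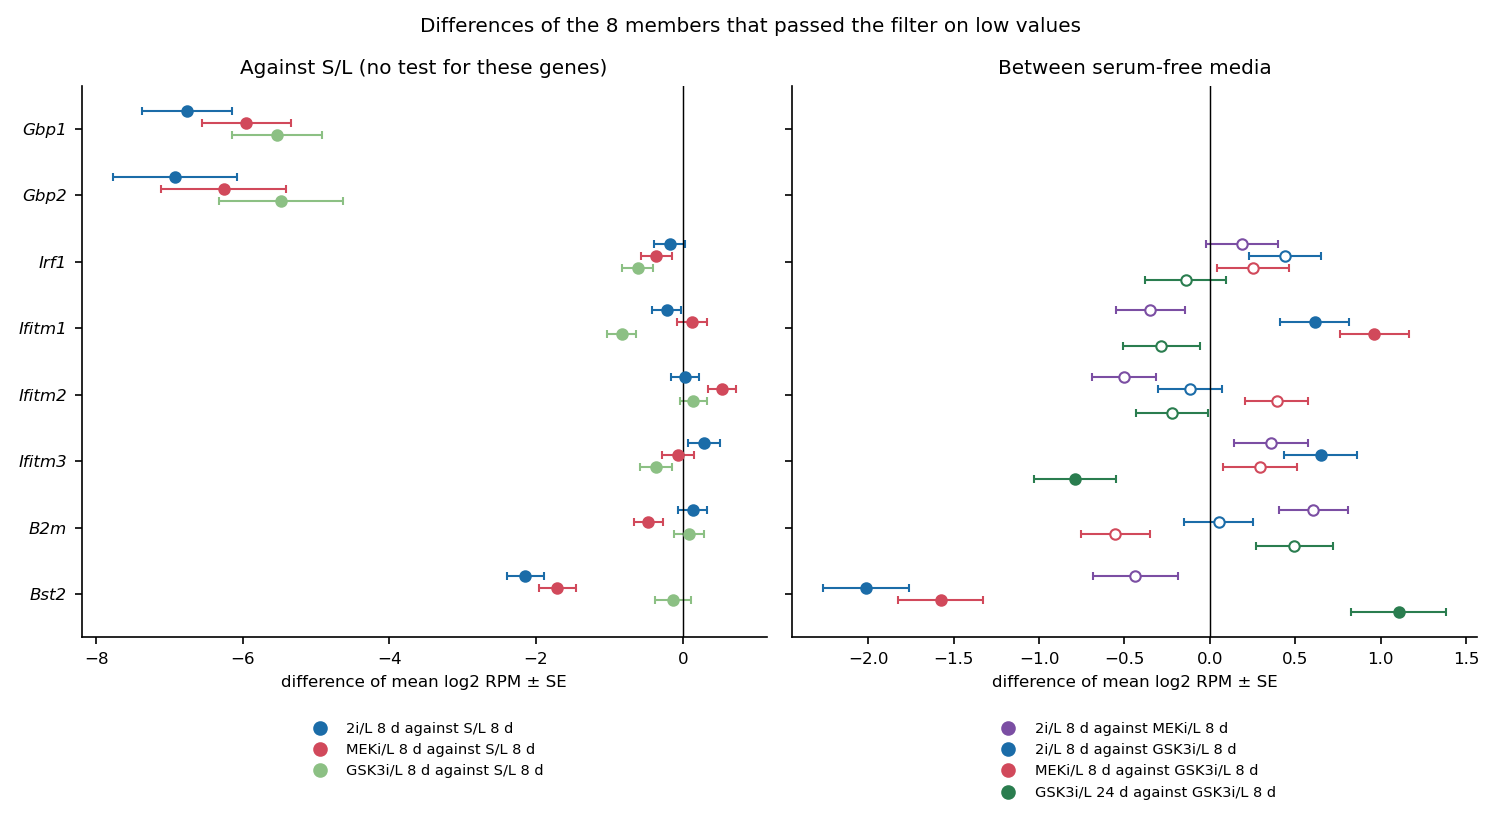
Log2 difference with its SE for each gene of the group that passed the filter, against S/L in the left panel (described, not tested) and, without Gbp1 and Gbp2, between serum-free media in the right panel, where filled points were called at an adjusted p under 0.05 and open points were not; colours mark the comparison. Gbp1 and Gbp2 lie between -6.92 and -5.48 in the left panel, and Bst2 at -2.01 and -1.58 in the right one.

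The 2 elements searched were not common. Of 32851 RefSeq mouse promoters of GRCm38.p6, 250 bases before to 50 after each start site, 3.44% held the ISRE core on either strand, 8.30% held TTCNNNGAA and 0.454% held both. Ifitm2 had the ISRE core 46 bases before its start and B2m 139 bases before, Ifitm3 had 2 ISRE cores and 1 GAS core in the 50 bases after its start, and the Ifitm1 window held neither. A match of letters is a description and not a bound site.

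**Figure D4:**
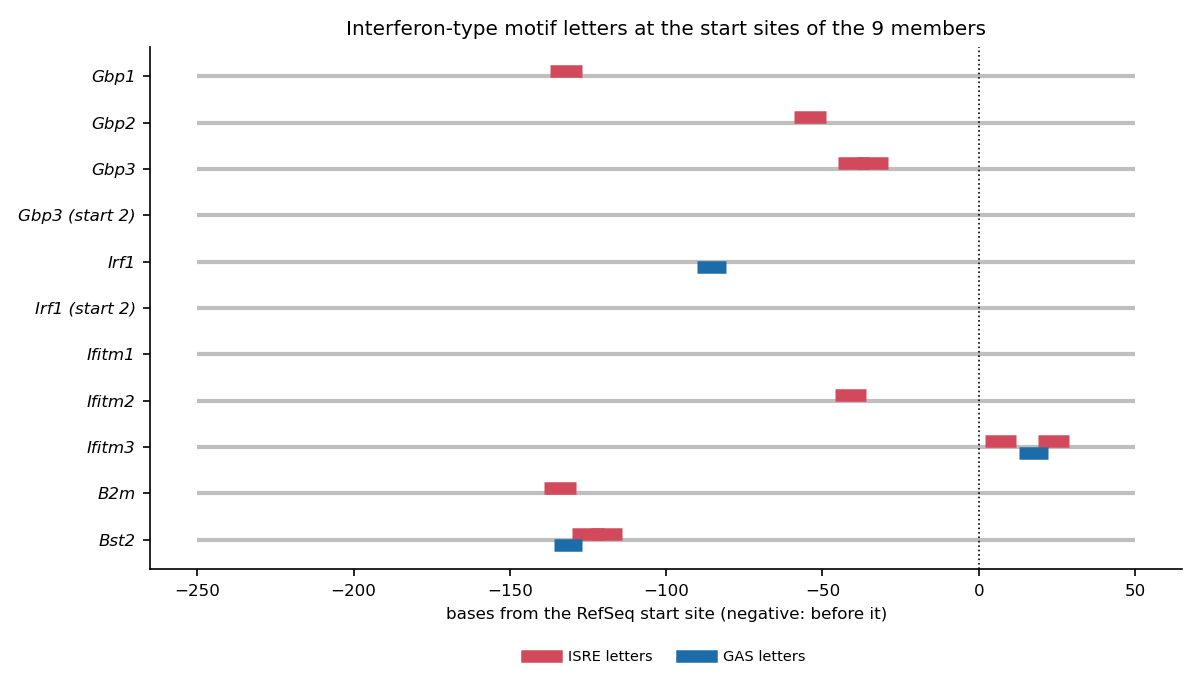
Position of the ISRE and GAS cores in bases from each RefSeq start site of the 9 genes, from 250 bases before to 50 after. Bst2 holds 2 overlapping ISRE cores beside a GAS core, and Gbp1 and Gbp2 hold 1 ISRE core each at 137 and 59 bases before the start.

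Likeness over the 14 libraries was searched among tested genes with a mean of at least 5 RPM over all libraries, predicted genes left out. This left out Gbp1, Gbp2, Gbp3 and other genes at low levels. Gbp1 and Gbp2 were more like each other (r = 0.979) than like the genes named here. The most similar profiles found were those of genes outside the pathway lists given next. By Pearson r of log2 values among 9669 or 9670 genes, Gbp1 was most like Zscan4d (0.971), Sssca1 (0.962) and Fgf17 (0.95), and Gbp2 most like Rarg (0.955), Hmgxb4 (0.951) and Bbs2 (0.946). Gbp3 was most like Fgf17 (0.909), Bbs2 (0.901) and Ccdc62 (0.90). Ifitm1 was most like Nodal (0.942), a signalling ligand of early embryos, Dirc2 (0.937) and Tbcc (0.932). Ifitm3 was most like Kbtbd2 (0.952), Pphln1 (0.934) and Trim2 (0.933), and Irf1 most like Cdkn2aip (0.902), Zfp961 (0.847) and Hspbap1 (0.847). Ifitm2 had the weakest likeness (Dnase1 at 0.810, Ccdc30 at 0.804 and Pga5 at 0.794), followed by B2m (Grcc10 at 0.872, Npepl1 at 0.865 and Sccpdh at 0.859). Bst2 was most like Gstt2 (0.971), Flywch2 (0.964) and Arl2 (0.963). The libraries share their groups, depth and length score, so these values describe likeness and carry no test. Bst2 and Ifitm3 ran opposite to each other (r = -0.755).

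The rest of the interferon pathway was read from lists that left these 9 genes out: 163 listed, 147 in the table and 98 tested. In 2i/L against S/L 40 rose and 25 fell, beside 39.1% of all genes higher and 24.4% lower. In MEKi/L against S/L 33 rose and 16 fell (background 26.1% and 14.7%), and in GSK3i/L against S/L 22 rose and 16 fell (16.8% and 14.4%). The shares of the lists, 40.8% and 25.5%, 33.7% and 16.3%, and 22.4% and 16.3%, thus lay near those of all genes. Between serum-free media 6 rose and 5 fell in 2i/L against MEKi/L (6.81% and 6.11% of all genes). In 2i/L against GSK3i/L 16 rose and 11 fell (19.8% and 8.02%). In MEKi/L against GSK3i/L 12 rose and 4 fell (12.2% and 5.65%), and at 24 against 8 days in GSK3i/L 2 and 7 (4.3% and 13.2%). The balance of all calls depends on scaling: 61.6% of the genes called in 2i/L against S/L and 64% in MEKi/L against S/L were higher, against 46.3% and 50.6% with each library centred on its median. For 2i/L against MEKi/L the share was 52.7% (38.3% centred), for 2i/L against GSK3i/L 71.2% (37.9%), for MEKi/L against GSK3i/L 68.3% (50.1%) and for 24 against 8 days 24.6% (38.2% with quantile normalization). The median log2 difference of all genes was 0.28, 0.17 and 0.06 for 2i/L, MEKi/L and GSK3i/L against S/L, and 0.07, 0.18, 0.09 and -0.19 in the serum-free comparisons in the order just given.

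Interferon ligands were silent: 13 were in the table, 0 passed the filter and all were at 0 in every library. Of 16 receptors and JAK-STAT components 12 rose and 1 fell in 2i/L against S/L, with a median log2 difference of 0.99, beside 39.1% of all genes higher and 24.4% lower. Jak2, a receptor-associated kinase, was at 14 ± 2.62 RPM in 2i/L and 3.51 ± 1.47 RPM in S/L (2.08 ± 0.35, limma adjusted p = 0.00022), and Stat2 at 67.6 ± 10.3 RPM in 2i/L and 18.4 ± 4.56 RPM in S/L (1.90 ± 0.21, limma adjusted p = 5.8e-06). Ifngr1, the ligand-binding chain of the interferon-gamma receptor, fell, at 2.68 ± 0.569 RPM in 2i/L, 2.52 ± 0.347 in MEKi/L and 2.07 ± 0.194 in GSK3i/L, against 6.41 ± 1.10 RPM in S/L. In MEKi/L against S/L 7 rose and 1 fell (median 0.69, beside 26.1% and 14.7% of all genes) and in GSK3i/L against S/L 6 and 1 (median 0.46, beside 16.8% and 14.4%). With the length score as a covariate 3 rose and 1 fell in 2i/L against S/L, and the median was 0.31. In that run 2818 of all 14980 genes rose and 1794 fell, so the list lay near all genes. Of 6 other IRF genes, 2 rose and 1 fell in 2i/L and in MEKi/L, and 0 rose and 1 fell in GSK3i/L, against S/L. Irf9, the DNA-binding partner of the STATs, was at 18.6 ± 3.81 RPM in 2i/L and 18.1 ± 2.22 RPM in MEKi/L, against 8.04 ± 2.06 RPM in S/L (1.22 and 1.19, limma adjusted p = 0.0010 and 0.0025).

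Effectors went both ways, as did all genes. In 2i/L against S/L 17 of 36 rose and 8 fell (47.2% and 22.2%, beside 39.1% and 24.4% of all genes, median 0.90). With no filter on low values 18 rose and 16 fell of 52, beside 5971 and 12119 of all 25965 genes. In MEKi/L against S/L 16 rose and 5 fell (44.4% and 13.9%, beside 26.1% and 14.7%, median 0.73). In GSK3i/L against S/L 9 rose and 7 fell (25% and 19.4%, beside 16.8% and 14.4%, median 0.14). Xaf1, an interferon-induced proapoptotic factor, was at 126 ± 25.4 RPM in 2i/L, 61.3 ± 12.4 in MEKi/L and 24.7 ± 8.83 in GSK3i/L at 8 days, against 1.80 ± 0.440 RPM in S/L. Its log2 difference from S/L was 6.15 ± 0.27 in 2i/L (limma adjusted p = 5.2e-09), 5.10 ± 0.27 in MEKi/L (limma adjusted p = 5.4e-08) and 3.76 ± 0.27 in GSK3i/L (limma adjusted p = 9.8e-07). Xaf1 thus ran opposite to Gbp1 and Gbp2, low in serum and high in 2i/L. Oas1a, a sensor enzyme for double-stranded RNA, rose to 18.1 ± 3.58 RPM in 2i/L and 17.2 ± 3.50 RPM in MEKi/L, against 3.20 ± 0.95 RPM in S/L (2.52 and 2.44). Parp9, an ADP-ribosyltransferase, fell to 8.37 ± 1.33 RPM in 2i/L, 6.44 ± 0.838 in MEKi/L and 11.1 ± 3.87 in GSK3i/L, against 19.3 ± 1.89 RPM in S/L. The Parp9 call in GSK3i/L was lost without replicate 2 of GSK3i/L and without replicate 1 or 3 of S/L. Parp12, of the same family, fell to 4.79 ± 0.842 RPM in 2i/L, against 15.7 ± 3.73 RPM in S/L. Of the sensors and adaptors, 5 of 10 rose in 2i/L and in MEKi/L and 4 in GSK3i/L, and 0 fell, against S/L. Of all genes, 39.1%, 26.1% and 16.8% rose in 2i/L, MEKi/L and GSK3i/L and 24.4%, 14.7% and 14.4% fell. Mavs, the mitochondrial adaptor of RNA sensing, was at 55.3 ± 7.93 RPM in 2i/L, 38.5 ± 9.51 in MEKi/L and 24.5 ± 6.92 in GSK3i/L, against 10.4 ± 1.00 RPM in S/L.

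MHC class I presentation, the list B2m belongs to, held more genes that fell than rose against S/L. In 2i/L 12 of 22 fell and 2 rose (median -1.13), beside 24.4% of all genes lower and 39.1% higher. In MEKi/L 8 fell and 2 rose (median -0.64, beside 14.7% and 26.1%), and in GSK3i/L 7 fell and 1 rose (median -0.56, beside 14.4% and 16.8%). Genes that reach the filter through S/L alone have little room to rise against it, and these counts do not set them apart. Psmb8 and H2-M3, at -5.53 and -4.39 in 2i/L, did not reach 2 RPM in 3 libraries. The medians stayed below 0 in each alternative in which the lists were counted (-1.43 to -0.85 in 2i/L, -0.81 to -0.20 in MEKi/L and -0.58 to -0.37 in GSK3i/L). These include runs with no filter and with at least 2 RPM in 3 libraries, which S/L alone can still meet. With no filter, 12119 of all genes were called lower and 5971 higher in 2i/L against S/L. Neither run can therefore set the filter apart from the falls. Psmb9, an immunoproteasome subunit, was at 0.352 ± 0.259 RPM in 2i/L and 5.58 ± 1.78 RPM in S/L (-4.37 ± 0.68, limma adjusted p = 0.00011), and Psmb10, another, at 11.7 ± 1.19 RPM in 2i/L and 63.3 ± 16.5 RPM in S/L (-2.41 ± 0.36, limma adjusted p = 8.0e-05). H2-K1, a classical heavy chain, was at 7.70 ± 1.27 RPM in GSK3i/L at 8 days and 25.7 ± 3.00 RPM in S/L (-1.74 ± 0.30, limma adjusted p = 0.00070). At 24 days in GSK3i/L it was at 20.3 ± 2.93 RPM, a rise over 8 days of 1.40 ± 0.33 (limma adjusted p = 0.018) whose call was lost without either library at 24 days. The chaperones Tapbp and Canx went the other way and rose in 2i/L against S/L (log2 differences of 1.37 ± 0.24 and 1.31 ± 0.27). The Canx call was lost with the length score as a covariate. Against GSK3i/L, 5 of the 22 fell and 1 rose in 2i/L, beside 8.02% of all genes lower and 19.8% higher. H2-Ke6, which rose at 24 against 8 days (41.2 ± 10.5 RPM at 24 days and 17.6 ± 4.86 RPM at 8 days), lies in the MHC region but encodes a steroid dehydrogenase, and its call was lost without replicate 3 at 24 days.

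Of 15 other guanylate-binding and immunity-related GTPases measured, 5 were tested, and they did not repeat the Gbp1 and Gbp2 pattern as a list. In 2i/L against S/L Irgm2 rose (1.16) and Gbp9 (-2.93) and Gbp4 (-2.58) fell, beside 39.1% of all genes higher and 24.4% lower. These calls were kept in 14 of 23, 22 of 22 and 20 of 23 alternatives. In MEKi/L against S/L 0 rose and Gbp9 fell (-1.58, kept in 20 of 22), beside 26.1% and 14.7%. In GSK3i/L against S/L Irgm2 rose (2.46) and 0 fell, beside 16.8% and 14.4%. Against GSK3i/L at 8 days, 3 of the 5 fell and 0 rose in 2i/L (8.02% and 19.8% of all genes). Of 3 other genes of the IFITM list 1 rose and 1 fell in 2i/L against S/L and 0 were called in the serum-free comparisons.

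**Figure D5:**
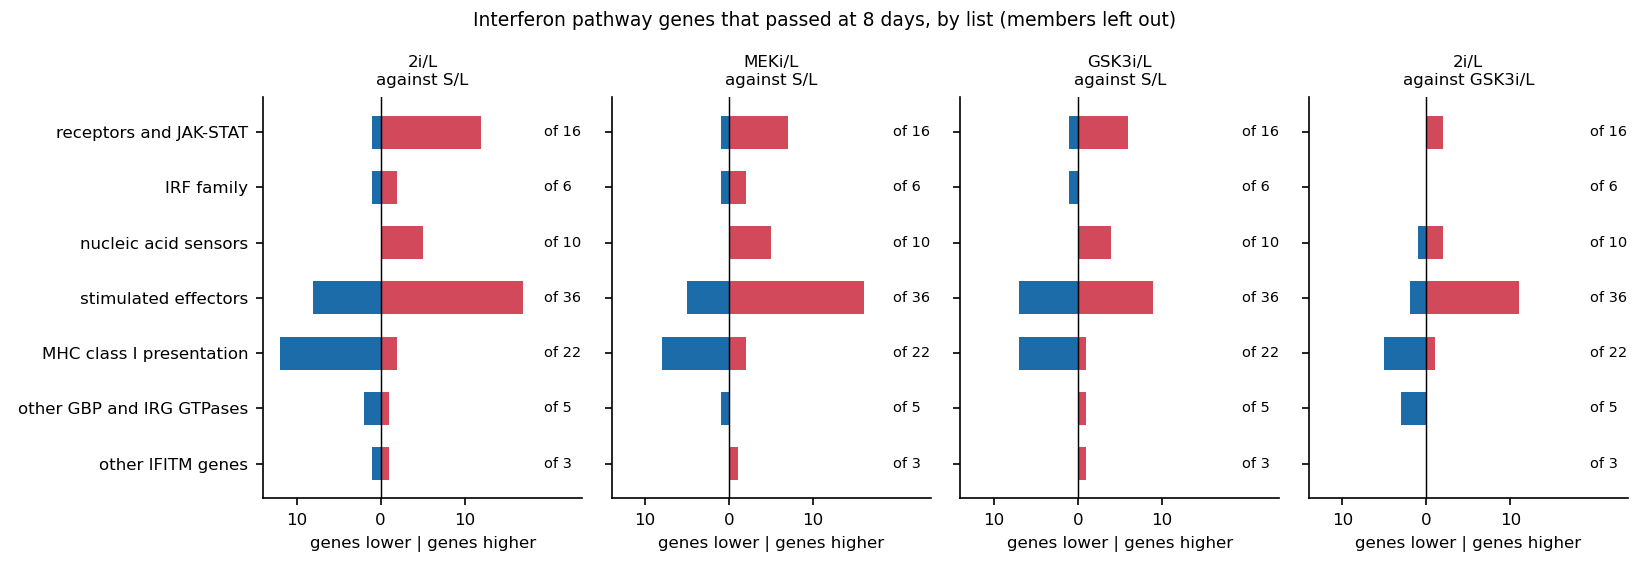
Number of genes called higher and lower in each interferon pathway list, with the 9 genes left out, for 4 comparisons at 8 days; bars run left for lower and right for higher genes, beside the number tested. Against S/L, 12, 7 and 6 of 16 receptor and JAK-STAT genes were higher and 12, 8 and 7 of 22 MHC class I genes lower in 2i/L, MEKi/L and GSK3i/L, beside 39.1%, 26.1% and 16.8% of all genes higher and 24.4%, 14.7% and 14.4% lower.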

How the data were processed

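The deposited table holds 1 log2 value of RPM per gene and library, computed by the authors. Per the submitters' processing notes the tools were Trim Galore 0.6.5, Bismark 0.22.3 and HISAT2 with build GRCm38; per the labels' protocols, poly(A) libraries (NEBNext Ultra II Directional) were read as 50-base single ends. How reads were counted is not given in the sources used here. From the values, 8 columns were plain (0 reads at 0.9 read, other values whole reads within 0.02) and 6 were matched to 1 distribution (sorted values within 0.079 log2 above 2 RPM). Of the 7 comparisons, 2i/L against MEKi/L uses plain columns alone, GSK3i/L against S/L matched columns alone, and 5 mix both kinds. Values were not counts, so no count test was run.

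All 14 libraries entered 1 limma 3.58.1 fit in R 4.3.3 (empirical Bayes, trend, robust) with group as the only term, on the 14980 genes that reached 0.5 RPM in 3 or more libraries. The fit was tested on simulated data. Calls are Benjamini-Hochberg adjusted p under 0.05. Levels are means ± SD of linear RPM. Genes named beside the 9 were, per list, comparison and direction, up to 2 called genes with the largest differences and a mean of at least 5 RPM in either group, and the 3 most similar profiles per gene. The 9 genes and all lists were chosen with earlier results of these data known. Replicate numbers were checked as pairs, and 8 of all 26 same-numbered pairs correlated over 0.1. Deviations of same-numbered libraries correlated at 0.67, 0.116 and 0.401 between MEKi/L and GSK3i/L at 8 days. These 2 groups were taken as paired in an alternative run only, and the main fit holds no pairing. The pairing is an assumption: MEKi/L replicate 2 correlated at 0.380 with GSK3i/L replicate 3. The value of 0.67 joins the 2 libraries whose length score stood apart. Promoters come from RefSeq (GRCm38.p6); all 9 genes were matched. The 24 bisulfite samples of the 38 in the series were not analysed here.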

Additional observations from a re-analysis of the deposited data

How the results depend on the processing

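Of 7 calls in serum-free comparisons among the 6 genes that reached the filter in all libraries, 3 were kept in every alternative run (Bst2 in 2i/L and in MEKi/L against GSK3i/L, Ifitm1 in MEKi/L against GSK3i/L) and 4 were lost in some. Of the 17 results of these genes that were not called, 10 were called in no alternative and 7 in some. With replicates 1 of MEKi/L and of GSK3i/L at 8 days left out together, genes called numbered 6738 in 2i/L against GSK3i/L (4171 with all libraries) and 5505 in 2i/L against MEKi/L (1936), where pathway genes called numbered 24 (11). With no filter on low values, 13127 and 18090 genes were called in 2i/L against GSK3i/L and S/L (4171 and 9521), and 59 and 100 pathway genes (27 and 65). With the length score as a covariate, 4612 genes were called in 2i/L against S/L, 705 at 24 against 8 days (2616) and 4763 in MEKi/L against GSK3i/L (2670), and 3 and 27 pathway genes in the last 2 comparisons (9 and 16).

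The replicate block over all groups gave 1194 genes at 24 against 8 days, where it ended the Ifitm3 call (-0.73, limma adjusted p = 0.0798). The block within MEKi/L and GSK3i/L at 8 days, chosen after seeing the data, gave 3994 genes and 21 pathway genes, called B2m and ended or turned no other call among the 9 genes.

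Leaving out 1 library at a time, genes called ran from 2578 (without 2i/L replicate 2) to 5744 (without GSK3i/L at 8 days replicate 1) in 2i/L against GSK3i/L, from 966 (without MEKi/L replicate 2) to 3962 (without MEKi/L replicate 1) in 2i/L against MEKi/L, from 372 (without the 24-day replicate 3) to 5885 (without GSK3i/L at 8 days replicate 3) at 24 against 8 days, and from 2800 (without S/L replicate 1) to 6748 (without GSK3i/L at 8 days replicate 3) in GSK3i/L against S/L. Further counts that moved by over 1.5 times were 2706 without 2i/L replicate 3 in 2i/L against GSK3i/L; 1194, 1034 and 1071 without 2i/L replicates 1, 2 and 3, 1014 without MEKi/L replicate 3 and 2939 without GSK3i/L at 8 days replicate 3 in 2i/L against MEKi/L; 1740 without 2i/L replicate 2, 443 without the 24-day replicate 2, and 586 and 1580 without GSK3i/L at 8 days replicates 1 and 2 at 24 against 8 days; and 2956 and 3073 without the last-named replicates 1 and 2 in GSK3i/L against S/L. Pathway genes ran from 16 to 30, 6 to 17, 3 to 26 and 24 to 40 in the order of the 4 comparisons given first. The causes were not tested. At 0 to 11 reads per library, differences of Gbp1, Gbp2 and Gbp3 between serum-free media were not detectable at this depth.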
